A study of Mus musculus with 3 samples.

Results

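The carriers that move glucose, amino acids and monocarboxylates across cell membranes were read from RNA of whole mouse ovaries in which the clock gene Bmal1 (symbol Arntl) was deleted by a Cre recombinase under the Sf-1 promoter. The members were chosen by name, as every non-control probe whose gene name on the array is Slc followed by 1, 2, 3, 5, 6, 7, 16, 36, 38 or 43, the letter a and a number. This rule took 161 of the 41174 probes, which read 95 genes. Gene names that end in a further letter, such as Slc5a4a, fall outside it, and 3 probes that only their accession ties to a member were left out. The rule used no measured value. Of the 95 genes, 73 were bright enough to be tested, among 17853 genes tested in all.

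Both groups were C57Bl/6J females aged 10 weeks, killed at Zeitgeber time 12, when the lights go off, 3.5 days after copulation. The genotype labels are Bmal1fxfxCresf-1 for the conditional knockout (cKO) and Bmal1fxfx (wild type) for the control, and the series' design text gives both as homozygous for the floxed allele, with and without Cre. The last number of the cKO genotype label runs with the array (2 on array 2, 3 on array 3); titles and design text placed these arrays in their groups. Each of the 3 arrays set a pool of RNA from 3 cKO animals, in the green dye cy3, against a pool from 3 controls, in the red dye Cy5, so that 9 animals of each genotype gave 3 pools. Dyes were not swapped, so dye and genotype cannot be told apart in any value given here. Cre under the Sf-1 promoter acts in steroid-producing cells of the gonad and the adrenal and in some cells of the pituitary and brain, so the ovary is a mixture of cells with and without the deletion. In a whole organ, fewer cells of a type and less RNA per cell cannot be told apart.

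Sugars and amino acids do not cross a cell membrane unaided. The Slc2 proteins let glucose and fructose run down their gradients, while Slc5 proteins drag sugars, inositol, vitamins or choline in with sodium. Slc16 proteins carry lactate, pyruvate, ketone bodies and, in some members, thyroid hormone or aromatic amino acids. Lactate and pyruvate matter in the ovary because granulosa and cumulus cells break down glucose and pass pyruvate to the oocyte, which uses little glucose itself. Amino acids enter by several routes at once: Slc1 and Slc38 proteins load the cell by coupling to sodium, Slc6 proteins use sodium and chloride, and the exchangers of the Slc7 family, most of which need the heavy chain Slc3a2 or Slc3a1, swap 1 amino acid for another. BMAL1 pairs with CLOCK and binds E-box sequences, and glucose uptake follows the clock in several tissues.

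Each value is the log2 of the cKO signal over the control signal after background correction and normalisation within each array, given as mean ± SD (n = 3 arrays), with array values in the order 1, 2, 3. A ratio of 1 is a doubling and 0 is equality. Arrays 2 and 3 shared a slide and array 1 had its own. Between 62.9% and 69.1% of spots were well above background in a channel, and with 3 arrays the precision of all values is limited. Arntl itself gave 0.27, 0.13 and -0.24. Its probe checks neither the deletion nor the labels, since the deleted part of the gene is not stated. All 8 luteal, all 8 granulosa and all 10 oocyte markers listed were well above background in both channels, whereas Pax8 (oviduct epithelium) and Cd79a (B lymphocytes) were not. Marker lists of other cells differed between arrays: the median log2 ratio of 9 macrophage markers was 0.92, 0.89 and -0.21 on arrays 1 to 3, that of 7 smooth muscle markers 0.22, 0.90 and -1.05, and that of the 4 oviduct markers tested 1.26, -0.50 and 0.13. The summed processed signal of the macrophage markers ran from 84856 to 172540 in the cKO pools. In the control pools it ran from 35711 to 68386, without overlap. Such a sum follows its brightest genes, and how often sums of other genes fail to overlap was not computed. By log2 ratio, only Lyz2 (0.46) and Fcgr1 (0.20) lay above 0 on array 3. The other macrophage markers tested ran there from -0.05 (Cd14) to -1.36 (Csf1r). The 6 fibroblast markers had medians of 0.69, 1.16 and 0.085, with 5 means above 0. Of these, 3 had an unadjusted p under 0.05 by limma, as did 5.9% of all genes in that direction. Their summed signal ran from 114220 to 156790 in the cKO pools and from 83179 to 112560 in the control pools, again without overlap. The sum of the 8 luteal markers ran from 363330 to 457870 in the cKO pools and from 426130 to 698150 in the control pools. This sum includes Star, whose mean was -4.09 (limma, adjusted p = 0.0196). Of the 8 luteal means, 2 lay above 0 and 6 below. The part of these cell types in the transporter values was not tested.

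The ovaries expressed most carriers of these families. On every array, 70 of the 95 genes had a brightest probe well above background in both channels. In 2 this held for the cKO channel only, in 1 for the control channel only, and in 22 for neither. All 11 glucose and fructose facilitators on the array were above background in both channels, as were 16 of the 17 members of the Slc36, Slc38 and Slc43 families and 11 of the 14 monocarboxylate carriers. Fewer of the sodium-coupled Slc5 carriers (5 of 11) and of the Slc6 carriers (10 of 18) were. The undetected Slc6 genes include the carriers of the neurotransmitters noradrenaline (Slc6a2) and dopamine (Slc6a3), and those of the Slc5 family include the intestinal glucose carrier Slc5a1 and the thyroid iodide carrier Slc5a5. No member was saturated.

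**Figure D1:**
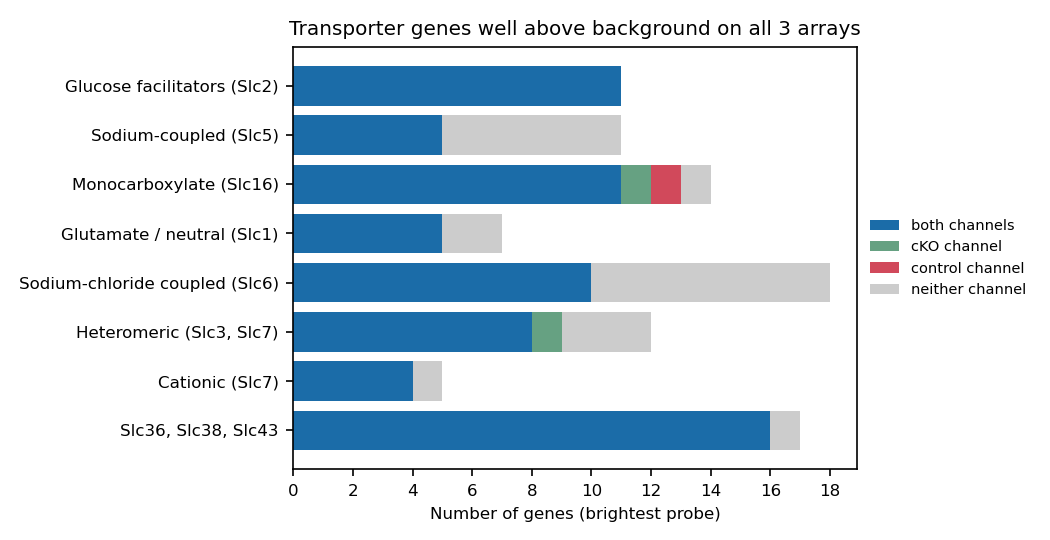
Number of transporter genes, by family, whose brightest probe stood well above background on all 3 arrays, in both channels, in the cKO channel only, in the control channel only, or in neither. All 11 Slc2 genes lie in the first class, whereas 8 of 18 Slc6 genes and 6 of 11 Slc5 genes lie in the last.

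No transporter differed between the genotypes past an adjusted p of 0.05 (limma, Benjamini-Hochberg over 17853 genes): 0 of 73, where 0.174% of all genes tested passed, 0.0672% higher and 0.106% lower. At an unadjusted p under 0.05 by limma, 7 transporters lay above 0 and 7 below. These are 9.59% of the 73 each way, beside 5.9% and 6.42% of all genes. With median centring in place of loess, which moved the median of all genes to 0.121, the counts were 11 above and 4 below, in all 20.5% of the members against 15.3% of all genes. All 3 arrays gave the same sign in 28 members, 14 positive and 14 negative, which is 38.4% against 35.2% of all genes. No member had that and a mean of at least 1 in size, which 1.37% of all genes had. The largest ratio, 0.99 for Slc7a8, is a 1.98-fold difference.

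The transporters as a group did not lie to one side. Their median log2 ratio was 0.0071, with quartiles of -0.21 and 0.19, and 38 means lay above 0 and 35 below. The median over all genes was -5.8e-05. On single arrays the median of the transporters was 0.042, -0.029 and 0.025. The median size of the mean, whatever its sign, was 0.211, against 0.168 over all genes. Means under 0.25 in size were found in 44 of the 73, and 10 reached 0.5.

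**Figure D2:**
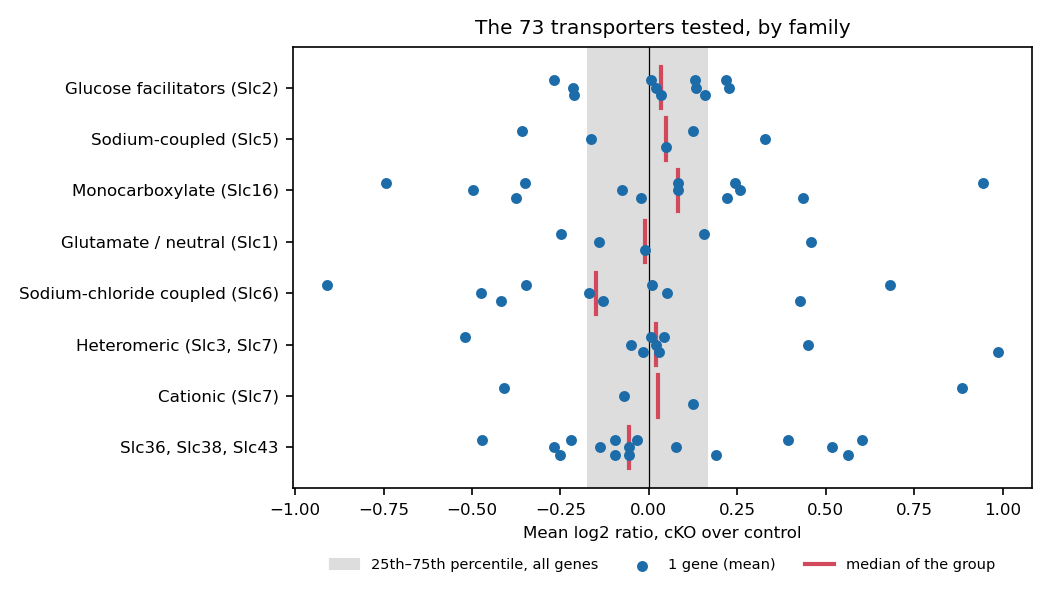
Mean log2 ratio of cKO over control for each of the 73 transporters tested (points, mean of 3 arrays), by family, with the median of each family (red bars) and the 25th to 75th percentile of all 17853 genes tested (grey band). Every family's median lies between -0.15 and 0.08, and the widest spread is that of the monocarboxylate family, from -0.74 to 0.95.

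The glucose and fructose facilitators were the most even family. All 11 means lay between -0.27 and 0.23, 8 of them above 0, and none kept one sign on all 3 arrays. Slc2a1 (GLUT1), the carrier of basal glucose uptake, read -0.66, -0.21 and 0.24, a mean of -0.21 ± 0.45 (95% interval -0.75 to 0.33). Its processed signal, the scanner software's brightness in arbitrary units, was 2912, 3125 and 5532 in the cKO pools and 3992, 3274 and 4048 in the control pools. The cKO pools were thus below the controls on arrays 1 and 2 and above on array 3. Slc2a3 (GLUT3), a high-affinity glucose carrier, read -0.17, 0.07 and -0.54, a mean of -0.21 ± 0.31. Slc2a4 (GLUT4), which insulin brings to the cell surface, read 0.21, 0.57 and -0.38, a mean of 0.13 ± 0.48. This gene has 10 spots on each array, and the SD among them was 0.25, 0.17 and 0.29. Spots on one array ran from -0.19 to 0.48, from 0.21 to 0.79 and from -0.86 to 0.0066. Those of array 1 thus overlap with those of array 2 and with those of array 3, whereas those of arrays 2 and 3 do not overlap. Slc2a8 (GLUT8), an intracellular carrier, had the lowest mean, -0.27 ± 0.43, with values of -0.19, 0.11 and -0.73. Slc2a13, a proton-coupled inositol carrier, had the highest, 0.23 ± 0.44.

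Of the sodium-coupled Slc5 carriers tested, 5 in number, 3 had means above 0. Slc5a6, which takes up the vitamins biotin and pantothenate, was negative on all 3 arrays (-0.27, -0.20 and -0.60; mean -0.36 ± 0.21). So was Slc5a2, a glucose carrier best known from the kidney, at -0.16 ± 0.06. Slc5a3, the inositol carrier induced by osmotic stress, read 0.32, -0.41 and 1.08, a mean of 0.33 ± 0.74. Its sign thus changed between arrays 2 and 3, which share a slide, and its second probe gave a mean of -0.06.

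The monocarboxylate family held members at both ends. Slc16a9, described as a carnitine carrier, read 1.47, 0.88 and 0.48, a mean of 0.95 ± 0.50 (95% interval 0.36 to 1.53). All 3 arrays had the cKO pool above its control pool, and limma's adjusted p was 0.268. Slc16a10, which carries aromatic amino acids, read 0.75, 0.23 and 0.33 (mean 0.44 ± 0.28), and its second probe gave 0.14. At the other end Slc16a11, a carrier best known from liver, read -0.81, -0.72 and -0.70. Its mean of -0.74 ± 0.06 (95% interval -1.06 to -0.42) came with the lowest adjusted p of any transporter, 0.197 by limma. The processed signal of Slc16a11 was 675, 566 and 541 in the cKO pools and 1361, 1059 and 960 in the control pools, so the groups did not overlap. Its neighbour in the genome, Slc16a13, a lactate carrier, read -0.09, -0.40 and -0.63 (mean -0.37 ± 0.27), also negative on all 3 arrays.

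The classical lactate and pyruvate carriers lay nearer to 0. Slc16a1 (MCT1), the widely expressed lactate and pyruvate carrier, read 0.13, -0.31 and 0.91, a mean of 0.24 ± 0.61. Its other probes gave means of 0.23 and 0.36. Slc16a3 (MCT4), the lactate exporter of glycolytic cells, was negative on all 3 arrays (-0.48, -0.41 and -0.15; mean -0.35 ± 0.18), and Slc16a7 (MCT2), a high-affinity pyruvate carrier, positive on all 3 (0.21, 0.12 and 0.34; mean 0.22 ± 0.11). Neither passed an unadjusted p of 0.05 (limma, 0.055 and 0.147), and on the scanner software's scale the mean of Slc16a3 was -0.050. Slc16a6, a ketone body carrier, had a mean of -0.02 ± 0.52.

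Slc16a5 (MCT6), a carrier of drugs such as bumetanide, stood well above background on all 3 arrays in the control channel but on none in the cKO channel. The processed signal was 7.87, 8.78 and 15.4 in the cKO pools and 66.4, 69.8 and 92.5 in the control pools. The groups did not overlap, but the cKO values are only bounds. The log2 ratio was -0.47, -0.58 and -0.44 (mean -0.50 ± 0.07; limma, adjusted p = 0.283), in which an offset added to dim signals pulls the value toward 0. Set against the dimmest signal that counted as well above background on each array, in means of normalised log2 channel values that are open to dye bias, Slc16a5 was at least 1.38-fold lower in the cKO. On the scanner software's own scale, which has no such offset, the mean was -2.88. There Slc16a5 was the only transporter past an adjusted p of 0.05 under any alternative tried (limma), but a ratio to a channel that is not above background is no measured difference, so only the bound is given. In Slc16a12, a creatine carrier, only the cKO channel was above background. The same comparison gave it a value 1.04-fold higher in the cKO (limma, adjusted p = 0.853, mean 0.08 ± 0.03). The 95% interval of its log2 ratio, -0.24 to 0.40, spans 0, so no direction is read from it. The bounds of 1.38 and 1.04 come from means over the arrays and carry no interval of their own.

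**Figure D3:**
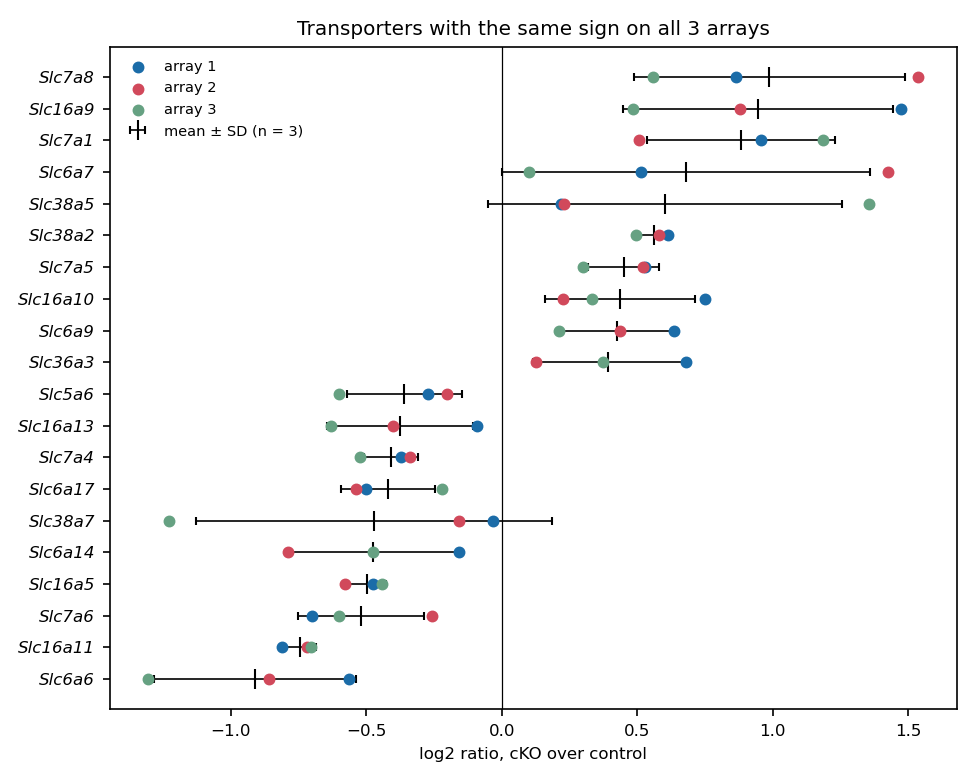
Log2 ratio of cKO over control on arrays 1, 2 and 3 (coloured points), with mean ± SD (n = 3), for the 10 highest and the 10 lowest transporters among those with the same sign on all 3 arrays. Slc16a11, Slc16a5 and Slc38a2 have the tightest points, whereas Slc6a7, Slc38a5 and Slc38a7 owe most of their mean to a single array.

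Among the glutamate and small neutral amino acid carriers, 5 of 7 genes were tested and the median was -0.01. Slc1a5 (ASCT2), which brings glutamine into many dividing cells, read 0.69, 0.88 and -0.19, a mean of 0.46 ± 0.57. The cKO pools thus lay above the controls on arrays 1 and 2 only. Slc1a3 (GLAST), a glutamate carrier, had a mean of -0.14 ± 0.17, and Slc1a4 (ASCT1), a carrier of serine and alanine, one of -0.01 ± 0.12. Slc1a1, the glutamate and cysteine carrier, read -0.38, -0.45 and 0.08 (mean -0.25), and its second probe gave -0.20.

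The Slc6 family had the lowest median, -0.15, over 10 genes tested. Slc6a6, the taurine transporter, had the lowest ratio of any member: -0.57, -0.86 and -1.30, a mean of -0.91 ± 0.37 (95% interval -1.39 to -0.43; limma, adjusted p = 0.247). Its processed signal was 13011, 10429 and 7666 in the cKO pools and 16014, 16806 and 16599 in the control pools, so every cKO pool lay below every control pool. Below 0 on all 3 arrays were also Slc6a14, a carrier of neutral and cationic amino acids (-0.16, -0.79 and -0.47; mean -0.47 ± 0.32), Slc6a4, the serotonin transporter (mean -0.35 ± 0.18), and Slc6a17, a vesicular neutral amino acid carrier of neurons (-0.50, -0.54 and -0.22; mean -0.42 ± 0.17). The Slc6a17 signal is dim in both channels, and its second probe gave -0.04. Slc6a9, a glycine transporter known from oocytes, was positive on all 3 arrays (0.63, 0.44 and 0.21; mean 0.43 ± 0.21). Slc6a7, a proline transporter, read 0.51, 1.43 and 0.10 (mean 0.68 ± 0.68), and without array 2 its mean was 0.31.

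In the heteromeric exchangers the light chains spread, while the brighter probe of the heavy chain Slc3a2 did not lie to one side. Slc7a8 (LAT2), a light chain that exchanges neutral amino acids, had the highest ratio of all transporters: 0.87, 1.54 and 0.56, a mean of 0.99 ± 0.50 (95% interval 0.40 to 1.57; limma, adjusted p = 0.261). Its processed signal was 9932, 8343 and 7961 in the cKO pools and 6173, 3041 and 5775 in the control pools, without overlap. Slc7a5 (LAT1), the light chain through which leucine enters growing cells, read 0.53, 0.52 and 0.30 (mean 0.45 ± 0.13; limma, adjusted p = 0.321). Their shared heavy chain Slc3a2 read 0.51, 0.20 and -0.63, a mean of 0.03 ± 0.59. Array 3 thus had Slc3a2 below 0 by its brighter probe and both light chains above 0. The dimmer probe of Slc3a2 read 0.28, 0.41 and 0.0077, a mean of 0.24, and so lay above 0 on all 3 arrays. Slc7a6, which exchanges cationic for neutral amino acids, was negative on all 3 arrays (-0.70, -0.26 and -0.60; mean -0.52 ± 0.23), and its second probe gave -0.29. Slc7a11, the cystine and glutamate exchanger that feeds glutathione synthesis, had a mean of 0.01 ± 0.18.

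Of the cationic amino acid carriers, Slc7a1 (CAT1), the main carrier of arginine and lysine in most cells, read 0.96, 0.51 and 1.19, a mean of 0.88 ± 0.35 (95% interval 0.42 to 1.35; limma, adjusted p = 0.246). Its processed signal was 1511, 1128 and 2102 in the cKO pools and 879, 902 and 994 in the control pools, without overlap. Slc7a4, a relative whose substrate is not settled, was negative on all 3 arrays (-0.37, -0.34 and -0.52; mean -0.41 ± 0.10). The remaining members, Slc7a2 and Slc7a3, had means of -0.07 and 0.12.

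Among the Slc36, Slc38 and Slc43 carriers 6 of 16 means lay above 0. Slc38a2 (SNAT2), the neutral amino acid carrier that cells raise when amino acids are short, had the tightest values of the 10 highest members: 0.61, 0.58 and 0.50, a mean of 0.56 ± 0.06 (95% interval 0.24 to 0.88; limma, adjusted p = 0.254). Its processed signal, however, overlapped between the groups, at 17554, 17056 and 27966 in the cKO pools and 14397, 13883 and 24777 in the control pools, although each cKO pool lay above the control pool on its array. Its other 3 probes gave means of 0.16 to 0.48. Its neighbours in the genome differed from it: Slc38a1 (SNAT1), a glutamine carrier, had a mean of -0.25 ± 0.16 and Slc38a4 (SNAT4), an imprinted amino acid carrier, one of -0.10 ± 0.82. Slc38a5, a glutamine and asparagine carrier, read 0.22, 0.23 and 1.36 (mean 0.60 ± 0.65), and Slc38a7, a lysosomal glutamine exporter, -0.03, -0.16 and -1.23 (mean -0.47 ± 0.66). Both means rest on array 3: without it they were 0.23 and -0.094. Slc36a3, of the proton-coupled family, was positive on all 3 arrays (mean 0.39 ± 0.28). Slc38a9, the lysosomal arginine sensor, had a mean of -0.10 ± 0.15.

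For members with several probes the choice of probe mattered. More than 1 probe passed the filter on dim signals in 23 of the 73 members, and in 10 of them another probe had a mean of opposite sign: Slc16a6, Slc1a4, Slc2a8, Slc36a4, Slc38a1, Slc38a10, Slc38a11, Slc38a9, Slc5a3 and Slc7a1. In Slc38a1, read by 5 probes, the other means ran from -0.25 to 0.57. In Slc7a1 the brighter probe gave 0.88 and the dimmer one -0.07, and the mean over both was 0.41. The mean log2 intensity of these probes was 8.77 and 6.30, and the offset pulls dim ratios toward 0. On the scanner software's scale the dimmer one gave -0.18. Probes of opposite sign were as dim in Slc38a11 (6.25) and Slc5a3 (6.31), but not in Slc38a1 (8.90) and Slc38a9 (8.95). In Slc6a6 the brighter probe gave -0.91 and the dimmer one -0.34, whereas on the scanner software's scale both gave close values, -0.70 and -0.71. The 60-base probes behind the largest ratios are shown by their bases 1 to 30, 5′ to 3′ as the deposited files give them, to let a reader place them on a transcript; no base is marked by capitals.

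Slc7a8: tatttcttttggattttttaatgtatggcg
Slc16a9: caatgcaataatggggctccaagcacatga
Slc7a1, brighter probe: ttaagtccgatactaactgtaaatcagctg
Slc7a1, dimmer probe: tgagatcctggtcatttctggacagtccct
Slc6a6, brighter probe: ggttttgcctccttcagaaatatgtctggc
Slc6a6, dimmer probe: tttgaatgttttgttattgcctggatatat
Slc16a11: gggggtactggctccatccgggataccact
Slc16a5: aaggagcccttttacttgggtctcagaagt

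Over the whole probes, G and C made up 35.0% in Slc7a8 and in both probes of Slc6a6, 40.0% in the brighter and 45.0% in the dimmer probe of Slc7a1, 45.0% in Slc16a9 and Slc16a5, and 51.7% in Slc16a11. The position of a probe in its transcript was not analysed here.

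The scale of the ratio mattered most for dim genes. Between the main scale and the scanner software's processed signals, 63 of the 73 members had means of the same sign, and the Pearson correlation across these genes, which are not independent replicates, was 0.731. Of the 28 members with the same sign on all 3 arrays, 27 had a mean of that sign on the scanner scale, and 21 also had it on all 3 arrays there. The mean of Slc38a1 changed sign, to 0.012. The scanner mean was larger in size in 45 members and over 2 times as large in 20. Slc6a17 (-1.26 against -0.42), Slc1a1 (-0.88 against -0.25) and Slc16a5 moved the most downward. Of the members furthest above 0, Slc7a8 read 0.87, Slc16a9 0.79 and Slc7a1 0.73 on the scanner scale, close to the main values. Slc38a2 (0.25), Slc7a5 (0.18) and Slc6a9 (0.15) moved further toward 0.

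**Figure D4:**
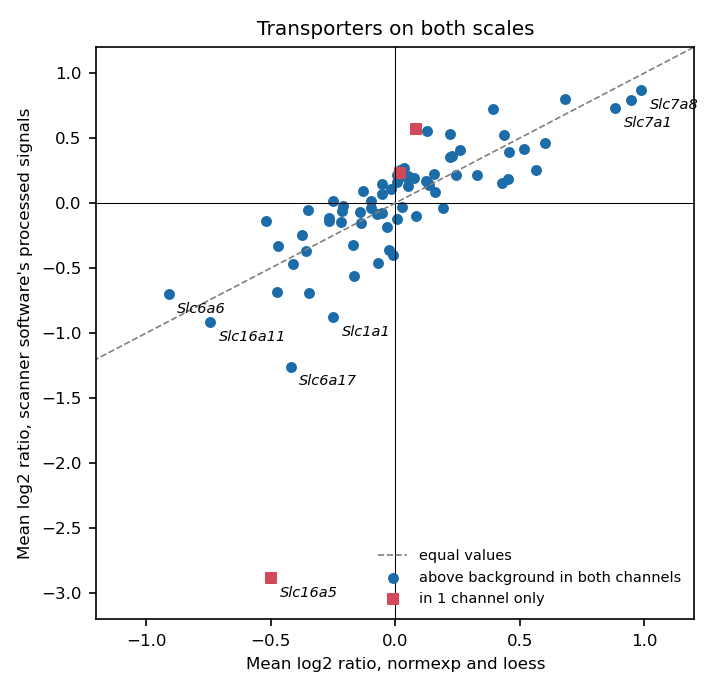
Mean log2 ratio (n = 3) of each of the 73 transporters on the main scale (x, normexp background correction and loess) against the scanner software's processed signals (y); the dashed line marks equal values, and squares are genes above background in 1 channel only. Most points lie near the line, whereas Slc16a5, Slc6a17 and Slc1a1 lie far below it.

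The 3 arrays did not rank the transporters alike. Across the 73 genes the Pearson correlation of the log2 ratio was 0.733 for arrays 1 and 2. It was 0.352 for arrays 1 and 3, and 0.202 for arrays 2 and 3. Over all genes these values were 0.601, 0.213 and 0.00874, and arrays 2 and 3 share a slide. In 24 members (32.9%, against 36.1% of all genes) arrays 1 and 2 had one sign and array 3 the other. Slc1a5, Slc3a2, Slc2a4 and Slc16a6 are among them. The largest spreads were those of Slc38a4 (-0.45, -0.68 and 0.85; SD 0.82), Slc5a3, Slc6a7 and Slc38a7, with SDs of 0.66 to 0.82. Without array 3, 12 transporters lay above 0 and 12 below at an unadjusted p under 0.05 by limma, in all 32.9% of the members against 26.8% of all genes, and the lowest adjusted p was 0.0888 (Slc16a11). Without array 1 the same counts were 3 and 2, in all 6.85% against 4.31%. The macrophage and smooth muscle marker medians given above also had one sign on arrays 1 and 2 and the other on array 3; their part in this was not tested.

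**Figure D5:**
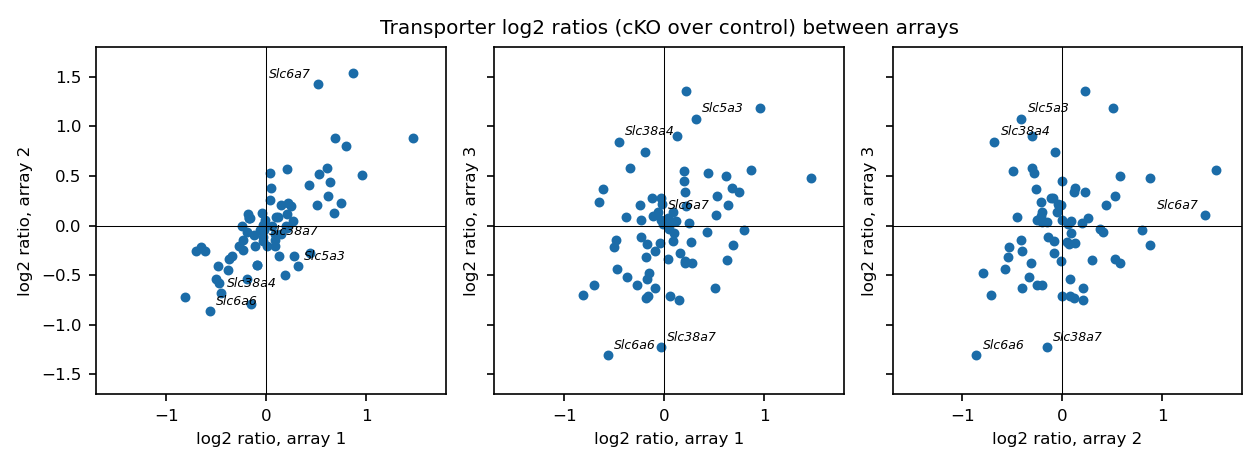
Log2 ratios of cKO over control of the 73 transporters, each array against each other array (1 point per gene); labels mark the members with the largest spread and Slc6a6. Points follow the diagonal for arrays 1 and 2 (Pearson 0.733) and scatter for arrays 2 and 3 (0.202).

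The genes around the transporters were read from 4 lists, and none of their members passed an adjusted p of 0.05 (limma). At an unadjusted p under 0.05 by limma there were 5 above and 4 below 0 among 55 genes tested. Over all genes tested the shares were 5.9% above and 6.42% below, so these counts are not read as a result about the lists. Of the partners and regulators of transporter placement, 3 of 13 means lay above 0 and 10 below, with a median of -0.14. Bsg (basigin), the chaperone that brings Slc16a1 and Slc16a3 to the membrane, read 0.61, 0.24 and -1.81, a mean of -0.32 ± 1.30. Emb (embigin), its relative that serves Slc16a7, was negative on all 3 arrays (mean -0.53 ± 0.55), and the kinase Akt1 had a mean of -0.32, with 0.21 from another probe.

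Of the 20 genes of glycolysis and lactate turnover, 6 means lay above 0 and 14 below, with a median of -0.13. At an unadjusted p under 0.05 by limma there were 1 above and 3 below, where 5.9% and 6.42% of all genes were. Aldoc (aldolase C) had the lowest, -0.93, -1.86 and -1.40 (mean -1.40 ± 0.47; limma, adjusted p = 0.176), though another probe gave -0.06. Aldoa (aldolase A) had a mean of -0.70 ± 0.41 and Pfkm, the muscle form of phosphofructokinase, one of -0.60 ± 0.53, both negative on all 3 arrays. Another probe of Aldoa gave -0.16. Among 13 genes of the amino acid response driven by the factor ATF4, the median was 0.02 with 7 means above 0 and 6 below. Ddit4, an inhibitor of mTORC1 signalling that ATF4 induces, was positive on all 3 arrays (0.88, 0.57 and 0.68; mean 0.71 ± 0.16; limma, adjusted p = 0.231). Atf5, a related factor, read 1.60, 1.43 and 0.12 (mean 1.05 ± 0.81). Psph, of serine synthesis, had a mean of -0.52 ± 0.49, though another probe gave 0.13. Among 9 genes of glutamine and glutamate metabolism 7 means lay above 0, with a median of 0.20. Got1 (0.90, 0.53 and 0.41; mean 0.61 ± 0.26) and Glud1 (0.56, 0.46 and 0.77; mean 0.60 ± 0.16), which interconvert glutamate and 2-oxoglutarate, were positive on all 3 arrays. Glul, glutamine synthetase, was negative on all 3 (mean -0.39 ± 0.14), although its other probes gave 0.003 and 0.261.

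The promoters of 67 of the 95 members were matched by symbol to RefSeq windows of the build GRCm38.p6, which run from 250 bases before to 50 after the gene start. Both strands were searched for CACGTG, the E-box that BMAL1 and CLOCK bind, for ACGTG, which lies within CACGTG, for TGATGCAA, the form of the amino acid response element, and for TTATGNAA, the D-box. CACGTG was found in 13.3% of the 90 member windows (12 genes) and in 7.15% of all 32851 windows. ACGTG stood in 28.9% (23 genes) and 19.6%, TGATGCAA in 4.44% (4 windows of 3 genes) and 0.895%, and TTATGNAA in 2.22% (2 genes) and 3.39%. A gene with several windows counts more than once in these shares. The 8 tested members with CACGTG had a median log2 ratio of 0.12 and the 44 with a window but no CACGTG one of 0.02. For TGATGCAA the median was -0.01 in the 3 tested members with it and 0.03 in the 49 with a window but without it. A match describes the letters of the window and is no evidence of binding.

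Shown are 4 of these promoters, each as the 250 bases before the gene start, 5′ to 3′ on the gene's strand, with the motif in capitals. They were taken because Slc16a1, Slc38a5 and Slc38a7 hold CACGTG and had means on both sides of 0, and Slc7a11 holds 2 copies of TGATGCAA. In Slc16a1 (chr3:104638414-104638663, plus strand) CACGTG starts 200 bases before the gene start, in Slc38a5 (chrX:8271131-8271380, plus strand) 30 bases and in Slc38a7 (chr8:95853492-95853741, minus strand) 34 bases. In Slc7a11 (chr3:50443614-50443863, minus strand) 2 copies of TGATGCAA, on opposite strands, start 66 and 47 bases before it.

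Slc16a1: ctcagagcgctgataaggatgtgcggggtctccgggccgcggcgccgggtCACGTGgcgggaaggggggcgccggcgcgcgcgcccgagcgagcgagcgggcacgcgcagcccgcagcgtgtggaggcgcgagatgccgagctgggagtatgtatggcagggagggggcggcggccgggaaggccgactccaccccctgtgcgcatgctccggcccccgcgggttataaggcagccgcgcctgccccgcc
Slc38a5: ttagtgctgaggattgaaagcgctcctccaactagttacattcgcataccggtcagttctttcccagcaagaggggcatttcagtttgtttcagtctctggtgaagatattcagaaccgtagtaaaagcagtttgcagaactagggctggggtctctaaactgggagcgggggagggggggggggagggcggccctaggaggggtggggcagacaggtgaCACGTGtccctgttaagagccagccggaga
Slc38a7: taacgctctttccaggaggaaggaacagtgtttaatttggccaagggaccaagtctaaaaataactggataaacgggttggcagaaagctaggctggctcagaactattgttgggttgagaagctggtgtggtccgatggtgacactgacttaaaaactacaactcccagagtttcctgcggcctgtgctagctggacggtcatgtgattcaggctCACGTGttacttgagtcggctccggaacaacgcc
Slc7a11: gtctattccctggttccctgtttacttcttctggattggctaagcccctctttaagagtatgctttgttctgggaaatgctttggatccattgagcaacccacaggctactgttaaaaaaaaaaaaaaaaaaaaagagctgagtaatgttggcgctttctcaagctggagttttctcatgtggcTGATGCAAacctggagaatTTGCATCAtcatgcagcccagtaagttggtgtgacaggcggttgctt

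Of all 8 tested members with CACGTG, 6 means lay above 0 and 2 below, and 4 had one sign on all 3 arrays. The means of those shown were 0.24 for Slc16a1, 0.60 for Slc38a5 and -0.47 for Slc38a7, each smaller in size than its SD over the arrays. Slc7a11, with both copies of the amino acid response element, lay at 0.01. The other members with TGATGCAA, Slc1a4 and Slc7a7, lay at -0.01 and -0.02. Slc38a2, Slc7a5 and Slc7a1, known as targets of the amino acid response in other cells, had means above 0 by their brightest probes. They are examples and not a full list of such targets, and the dimmer probe of Slc7a1 gave -0.07. Asns, a standard reporter of that response, read -0.89, -0.73 and 0.33.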

How the data were processed

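Two-colour Agilent whole mouse genome arrays were read, per the file headers, with version 9.1.3.1 of Agilent Feature Extraction. Spot and local background intensity values were used as deposited. The deposited log10 ratio is of the red (control) over the green (cKO) processed intensity, which the software had background-subtracted and dye-normalised, per the file headers. It was turned to log2 of cKO over control for the scanner scale.

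Mean signals were corrected by normexp (median local background, offset 50) and loess within each array with control spots at weight 0 (limma 3.58.1, R 4.3.3). The offset pulls dim ratios toward 0. Spots marked as outliers (13, 4 and 0) were left out. Probes well above background in 1 channel on all 3 arrays were kept, and each gene was read by its brightest probe. Log2 ratios were tested against 0 with limma's moderated test, Benjamini-Hochberg adjusted over 17853 genes, and the script was tested on simulated data. Alternatives covered the background correction, the normalisation, the dim-probe filter, the slide, the probe rule and each replicate.

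Named are the 10 highest and 10 lowest members of one sign on all arrays, 15 set members, the 4 of largest SD, those with a bound or with probes of opposite sign, and the 3 largest of each pathway list. Other genes were named after their values were seen. The members and lists were chosen with earlier results of these data known. The p-values measure the spread between pools, not animals.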

Additional observations from a re-analysis of the deposited data

How the results depend on the processing

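Few pools and dim signal limit these values. Under 12 alternatives, 458 of 490 values of 41 named members stayed within 1 SD of the value reported. Leaving out 1 of 3 arrays or adding the slide term cannot move a mean by more than 1 SD. The filters on dim probes do not change the value of a brightest probe that is kept. For those settings the count therefore cannot show stability. In 40 of the 490, over 14 members, the sign differed from that reported, among them Slc2a1 (0.015 with median centring), Slc16a1 (-0.089 without array 3) and Slc2a4 (-0.087 without array 2). Of the members with one sign on all arrays only Slc38a1 is among these, at 0.012 with the scanner software's processed signals. Genes called, 31 of all those tested, were 53 with those signals, 57 with an offset of 10, 48 with the slide as a fixed term, 1 with median centring or within the slide of arrays 2 and 3, 0 with scaled arrays or no filter on dim probes, and 0 to 20 without 1 replicate. Counts at an unadjusted p under 0.05 by limma, where 0 genes were called, were 2302 with scaled arrays, 3181 with no filter and 4783 without replicate 3. Transporters called, 0 as reported, were 1 with the scanner signals: Slc16a5, whose cKO channel was not above background, so that the call rests on a bound. Transporters at an unadjusted p under 0.05, 14 as reported, were 9 with the scanner signals (4 above 0; 12.3% of members, 6% of all genes), 7 with the slide term (4 above and 3 below; 9.59% and 6.48%), 5 within the slide of arrays 2 and 3 (3 and 2; 6.85% and 4.31%), and 5 to 24 without 1 replicate (3 to 12 above, 2 to 12 below; 6.85% to 32.9% of members, 4.31% to 26.8% of all genes). Median centring gave 11 above and 4 below (20.5% and 15.3%), and no filter gave 8 above and 11 below (20% and 11.4%). Transporters of one sign and at least 1 in size, 0 as reported, were 2 with the scanner signals, 3 with median centring, 1 with scaled arrays, 2 with an offset of 10, 1 with the slide term, 2 on arrays 2 and 3, and 1 to 2 without 1 replicate. The share of all genes by this size rule, 1.37% as reported, is not given for the alternatives, so these counts have no background beside them. The median of the transporters was 0.068 with the scanner signals, 0.060 with median centring, and -0.033 to 0.027 without 1 replicate. Over all genes the median was -0.019 with the scanner signals and 0.121 with median centring, so under median centring the transporters lay below all genes. Without 1 replicate the median over all genes was -0.0048 to 0.00096. The causes were not tested. Leaving out replicate 1 is the fit on arrays 2 and 3. The slide as a random block could not be estimated from 3 arrays; the slide as a fixed term was chosen after seeing the data. Each array sets a cKO pool and a control pool in the same spots. The test of a single group of 3 ratios against 0 thus already pairs the pools by array.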

Other observations

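The 10 spike-in control transcripts, with 320 spots on each array, had median log2 ratios of cKO over control of -2.99, -3.66 and 0.12 on arrays 1 to 3 in the scanner software's processed signals. The Spearman correlation of their ratios across the 10 transcripts was 0.976 for arrays 1 and 2, 0.927 for arrays 1 and 3, and 0.879 for arrays 2 and 3, as a description over transcripts that share their arrays. The labels do not say which mixture went into which dye on each array, so no expected ratio is set beside these values.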
